A study of Sus scrofa with 8 samples.

Results

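The genes described here are 10 classical interferon-stimulated effector genes of the pig: IFI35, NMI, IFI44, IFI44L, IFI6, IFIT5, SAMD9, GBP2, LAP3 and PML. They were chosen by symbol as interferon-induced effectors that act outside antigen presentation and ISG15 conjugation. Each symbol matched 1 of the 24358 genes in the count table, so all 10 were found. Interferons bind receptors at the cell surface, and the receptor-bound JAK kinases then phosphorylate STAT proteins, which enter the nucleus and switch on a large set of interferon-stimulated genes. IRF-1 (gene IRF1) is a transcription factor of the interferon regulatory factor family that binds related promoter elements and can activate part of this set without added interferon. Pluripotent stem cells are known for a weak response to interferon and for constant expression of some of these genes.

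The study asked how overexpressed IRF-1 changes the transcriptome of DOX-hLIF-2i piPSCs, which are pig iPS cells reprogrammed from embryonic fibroblasts. IRF-1 overexpressing cells (replicates 1 and 3) received PB-CAG-IRF1-Flag, a piggyBac vector that drives a Flag-tagged IRF1 insert from the CAG promoter, and control cells (replicates 6 and 8) received PB-CAG-Flag without the insert. Cells of both groups carried the OCT4-tdTomato reporter and doxycycline-inducible OSKM factors on which their self-renewal depends, were kept with doxycycline, human and porcine LIF, CHIR99021 and PD0325901, and were selected with puromycin and passaged, with no cloning of single cells described. The GEO labels name another culture system, LCDMV, and give the overexpression genotype for all 4 RNA-seq samples, so the split into groups follows the comparison set for these titles, which is also that of the study's legend. Feeder cells were removed before RNA extraction by letting them attach for 1 hour. Nothing in the labels says that the 2 libraries of a group came from separate cultures, so every p-value here measures the spread between these libraries, which may be technical.

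Poly(A) RNA was sequenced, and the authors' table holds counts of reads per gene. The totals were 24923319 and 20858333 counts in IRF-1 overexpressing replicates 1 and 3, and 15925429 and 17097669 in control replicates 6 and 8. Mitochondrial genes took 8.62% and 7.57% of the counts in the IRF-1 overexpressing libraries and 6.29% and 6.68% in the control libraries. Without mitochondrial and the top 10 genes, 5 effector genes were called higher, as with all genes (8.66% of all genes tested there). Any other part of this difference in the results was not tested. Levels are given as CPM, counts brought to one common library total with TMM factors, and groups as mean ± SD over 2 libraries. Differences are log2 fold changes of IRF-1 overexpressing over control cells from edgeR's quasi-likelihood test, with p adjusted over 13250 tested genes. Calls needed an adjusted p under 0.05 together with a log2 fold change no smaller than 1 in size. With 2 libraries against 2, the smallest two-sided p of an exact permutation test is 0.333.

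IRF1 itself was counted 8206 and 5485 times in IRF-1 overexpressing replicates 1 and 3, and 55 and 56 times in control replicates 6 and 8. Both IRF-1 overexpressing libraries were far above both controls. The level was 297 ± 47.1 CPM (SD, n = 2) against 3.36 ± 0.225 CPM (SD, n = 2), a log2 fold change of 6.46 (SE 0.21, edgeR adjusted p = 3.65e-05). The counts do not separate introduced from endogenous IRF1 transcripts.

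Of the 10 effector genes, all of which passed the filter on low counts, 5 were called higher in the IRF-1 overexpressing cells, where 8.61% of all tested genes were called higher. These were SAMD9, IFI35, NMI, IFI44 and IFI44L. The number called higher fell to 3 without IRF-1 overexpressing replicate 1 (756 of all 13507 genes tested there), without control replicate 8 (8.24% of all tested genes) and with glmTreat, which tests against the fold limit itself (4.61%). It was 4 without control replicate 6 (8.43%) and 6 with no filter on low counts (7.40%). None was called lower by edgeR, against 10.6% of all tested genes (6.47% without IRF-1 overexpressing replicate 1); 1 (LAP3) lay lower at an unadjusted p under 0.05, and DESeq2 and limma-voom called 0 lower. For 8 of the 10 genes both IRF-1 overexpressing libraries lay above both controls, as they did for 34.8% of all tested genes; LAP3 lay the other way and the groups overlapped for IFI6. The median log2 fold change of the 10 genes was 1.20, also with SAMD9 set at its lower bound, and that of all tested genes was -0.0016. The summed level hardly differed, with 622 and 623 CPM in IRF-1 overexpressing replicates 1 and 3 and 594 and 637 CPM in control replicates 6 and 8. LAP3 made up most of it and was lower in IRF-1 overexpressing cells (419 against 523 CPM), whereas the other 9 genes had log2 fold changes above 0. In bulk RNA, a change in the number of cells that express a gene and a change in RNA per cell cannot be told apart.

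**Figure D1:**
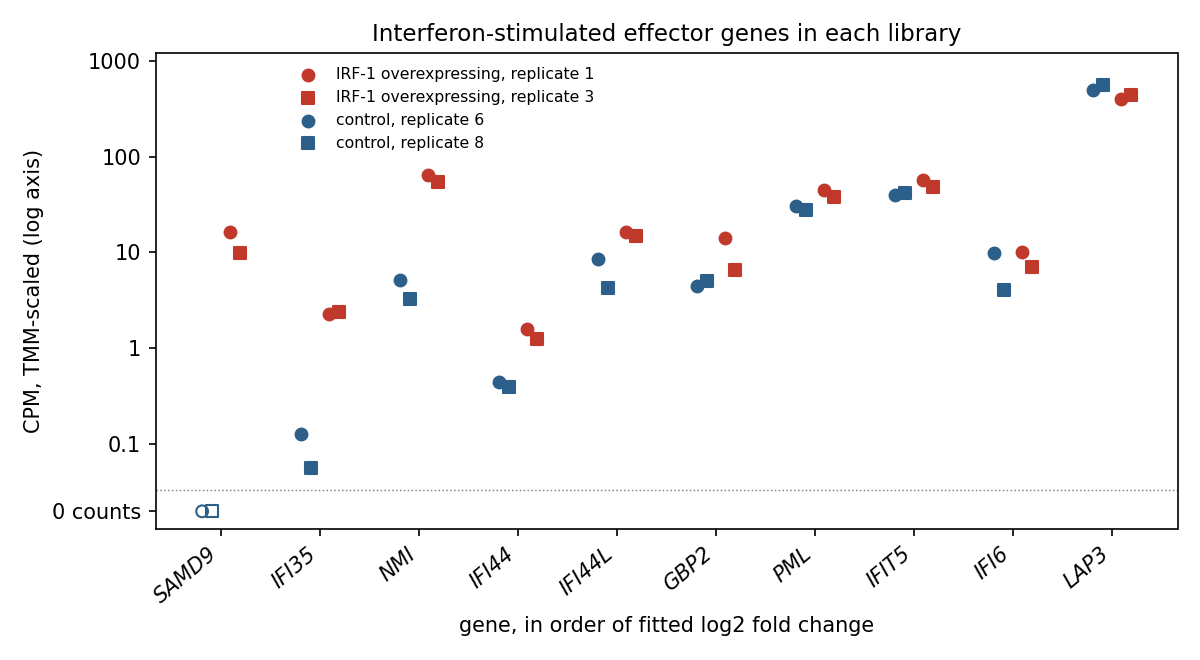
TMM-scaled CPM (log axis) of each effector gene in each of the 4 libraries, with IRF-1 overexpressing cells in red and control cells in blue; open symbols below the dotted line mark libraries with 0 counts. SAMD9, IFI35 and NMI stand furthest apart between groups, IFI6 overlaps, and LAP3 is lower in both IRF-1 overexpressing libraries (397 and 441 CPM) than in both controls (495 and 551 CPM).

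NMI and IFI35 encode partner proteins that bind each other in the cytoplasm; NMI also binds STAT and MYC proteins, and both are released by activated macrophages as danger signals. NMI (ENSSSCG00000022011; Sscrofa11.1, plus strand of chr15:941193-966709) was counted 1580 and 1130 times in IRF-1 overexpressing replicates 1 and 3, and 81 and 57 times in control replicates 6 and 8. Both IRF-1 overexpressing libraries were high and both controls low, with no overlap. NMI rose from 4.22 ± 1.36 CPM (SD, n = 2) to 59.0 ± 6.56 CPM (SD, n = 2), a log2 fold change of 3.81 (SE 0.25, edgeR adjusted p = 0.000195). IFI35 (ENSSSCG00000029763; minus strand of chr12:19879514-19891123) was far less abundant, with 57 and 50 counts in IRF-1 overexpressing replicates 1 and 3 against 2 and 1 counts in control replicates 6 and 8. The controls were close to the limit of detection, so the fold is imprecise. IFI35 rose from 0.0926 ± 0.0501 CPM (SD, n = 2) to 2.35 ± 0.0774 CPM (SD, n = 2). The ratio was 25.9, with an exact 95% counting interval from 8.62 to 127 (edgeR adjusted p = 0.00185). NMI and IFI35 kept their call in all 14 alternative settings.

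SAMD9, a cytoplasmic protein that restricts poxvirus replication, was detected in the IRF-1 overexpressing cells alone. SAMD9 (ENSSSCG00000027372; minus strand of chr9:72963815-72999761) was counted 402 and 206 times in IRF-1 overexpressing replicates 1 and 3, and 0 times in each control library. Replicate 1 held more than replicate 3, and neither control held any. The mean level of 13.0 ± 4.44 CPM (SD, n = 2) was at least 71.8-fold higher than a floor of 3 counts in each control library (edgeR adjusted p = 0.000479). The bound from IRF-1 overexpressing replicate 3 alone was 54.5-fold. A floor of 3 counts is worth 0.192 CPM in control replicate 6 and 0.172 CPM in control replicate 8. SAMD9 kept its call in all 14 alternative settings. Its close relative SAMD9L was not analysed here, and reads shared by such relatives may have been split or dropped in the counting.

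IFI44 and IFI44L are neighbouring, related genes whose cytoplasmic products are commonly used as markers of an interferon response. IFI44 (ENSSSCG00000003763; minus strand of chr6:134633961-134650811) had 40 and 26 counts in IRF-1 overexpressing replicates 1 and 3, and 7 counts in each control library. The groups did not overlap, although all 4 counts were small. IFI44 rose from 0.424 ± 0.034 CPM (SD, n = 2) to 1.43 ± 0.255 CPM (SD, n = 2), a log2 fold change of 1.75 (SE 0.51, edgeR adjusted p = 0.036). This call was lost with DESeq2 (adjusted p = 0.146; range over the 10 settings with all 4 libraries 0.0288 to 0.241), with glmTreat (adjusted p = 0.241) and with any 1 library left out (edgeR adjusted p from 0.105 to 0.257). Its log2 fold change stayed near that size, at 1.76 with DESeq2 and from 1.56 to 1.92 with a library left out.

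IFI44L (ENSSSCG00000027660; minus strand of chr6:134100934-134680050) had 404 and 307 counts in IRF-1 overexpressing replicates 1 and 3, and 132 and 75 counts in control replicates 6 and 8. The IRF-1 overexpressing libraries were alike and both were above the controls, which differed more from each other. IFI44L rose from 6.37 ± 2.94 CPM (SD, n = 2) to 15.5 ± 1.06 CPM (SD, n = 2), a log2 fold change of 1.29 (SE 0.34, edgeR adjusted p = 0.0241). Without IRF-1 overexpressing replicate 1 the call was lost at a log2 fold change of 1.23 (edgeR adjusted p = 0.0976), and without control replicate 8 at 0.89 (edgeR adjusted p = 0.034, with 0.00142 to 0.0976 over the left-out libraries), which is under the fold limit. It was also lost with glmTreat (adjusted p = 0.448, the highest over the settings with all libraries). The gene model of IFI44L in the count table encloses IFI44 on the same strand but shares 0 exon bases with it. In the RefSeq annotation of the same assembly, IFI44L spans chr6:134660230-134679212 and does not enclose IFI44. The exon blocks of 22, 35 and 55 bases that widen the model lie outside that span.

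IFI6, a small hydrophobic membrane protein that inhibits apoptosis and flavivirus replication, was the gene for which the groups overlapped. IFI6 (ENSSSCG00000034570; minus strand of chr6:84852773-84857979) had 249 and 148 counts in IRF-1 overexpressing replicates 1 and 3, and 155 and 71 counts in control replicates 6 and 8. Scaled for depth, the controls (9.92 and 4.06 CPM) reached from below both IRF-1 overexpressing libraries to the level of the higher of them, and the controls differed 2.44-fold from each other. The log2 fold change was 0.30 (SE 0.43, 95% interval -0.69 to 1.29, edgeR adjusted p = 0.638), so a difference of either sign was within the error. It turned to -0.20 without control replicate 8 and reached 1.08 without control replicate 6, and neither value was called.

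IFIT5 and GBP2 represent families of effectors that act on foreign RNA and on pathogens inside cells. IFIT5, a tetratricopeptide repeat protein that binds RNA carrying terminal phosphates, is encoded by ENSSSCG00000010454 (plus strand of chr14:101254658-101267659) and reached 56.3 and 48.5 CPM in IRF-1 overexpressing replicates 1 and 3 against 39.8 and 41.2 CPM in control replicates 6 and 8. Both IRF-1 overexpressing libraries were above both controls by a small margin. The log2 fold change was 0.37 (SE 0.15, 95% interval 0.02 to 0.73, edgeR adjusted p = 0.11), which was not called. The neighbouring IFIT1, 3549 bases away on the same strand, was among the genes that rose, with 474 and 230 counts against 21 and 10 and a log2 fold change of 3.99 (SE 0.47, edgeR adjusted p = 0.00109). Whether IFIT5 and IFIT1 differ in their response was not tested.

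GBP2, a guanylate-binding GTPase recruited to pathogen-containing vacuoles, is encoded by ENSSSCG00000006923 (minus strand of chr4:127387223-127408729). It reached 14.0 and 6.54 CPM in IRF-1 overexpressing replicates 1 and 3 against 4.42 and 5.09 CPM in control replicates 6 and 8. IRF-1 overexpressing replicate 1 stood above the other 3 libraries, and replicate 3 only slightly above the controls. The log2 fold change of 1.12 (SE 0.39, 95% interval 0.20 to 2.03, edgeR adjusted p = 0.0698) was not called. It was 0.47 without IRF-1 overexpressing replicate 1 and was called at 1.57 without replicate 3 (edgeR adjusted p = 0.0146, with 0.0146 to 0.546 over the left-out libraries). GBP2 was also called with no filter on low counts (edgeR adjusted p = 0.0051) and with DESeq2 (adjusted p = 0.0373), in a range up to 0.86 over the 10 settings with all libraries.

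Guanylate-binding genes lie in a cluster around GBP2. GBP1, on the opposite strand, has a gene model that spans GBP2 and shares 0 exon bases with it; it rose from 8 and 15 counts in control replicates 6 and 8 to 332 and 243 counts in IRF-1 overexpressing replicates 1 and 3 (log2 fold change 4.17, SE 0.37, edgeR adjusted p = 0.000454). The nearest gene with no symbol, ENSSSCG00000006919, 8282 bases from GBP2, had 639 and 404 counts against 1 and 3. Genes of the IFIT and guanylate-binding families are similar in sequence, so counts of single members are uncertain where reads could be split between them.

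PML and LAP3 act in basic cell processes. PML, the scaffold protein of nuclear bodies, is encoded by ENSSSCG00000001912 (minus strand of chr7:59404100-59450046) and reached 44.4 and 37.4 CPM in IRF-1 overexpressing replicates 1 and 3 against 30.8 and 27.5 CPM in control replicates 6 and 8. Both IRF-1 overexpressing libraries were above both controls. The log2 fold change was 0.49 (SE 0.17, 95% interval 0.09 to 0.89, edgeR adjusted p = 0.0685), which was not called and whose interval lies under the fold limit.

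LAP3, a leucine aminopeptidase that trims peptides in the cytosol, is encoded by ENSSSCG00000023604 (plus strand of chr8:12590330-12619107). It had 9857 and 9174 counts in IRF-1 overexpressing replicates 1 and 3, and 7732 and 9637 counts in control replicates 6 and 8. The raw counts of the groups overlapped, and scaled for depth both IRF-1 overexpressing libraries were below both controls (419 ± 31.3 CPM against 523 ± 39.7 CPM, SD, n = 2 each). The log2 fold change was -0.32 (SE 0.13, 95% interval -0.63 to -0.01, edgeR adjusted p = 0.113), which was not called. It was negative in all 14 alternative settings, those with another scaling included.

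**Figure D2:**
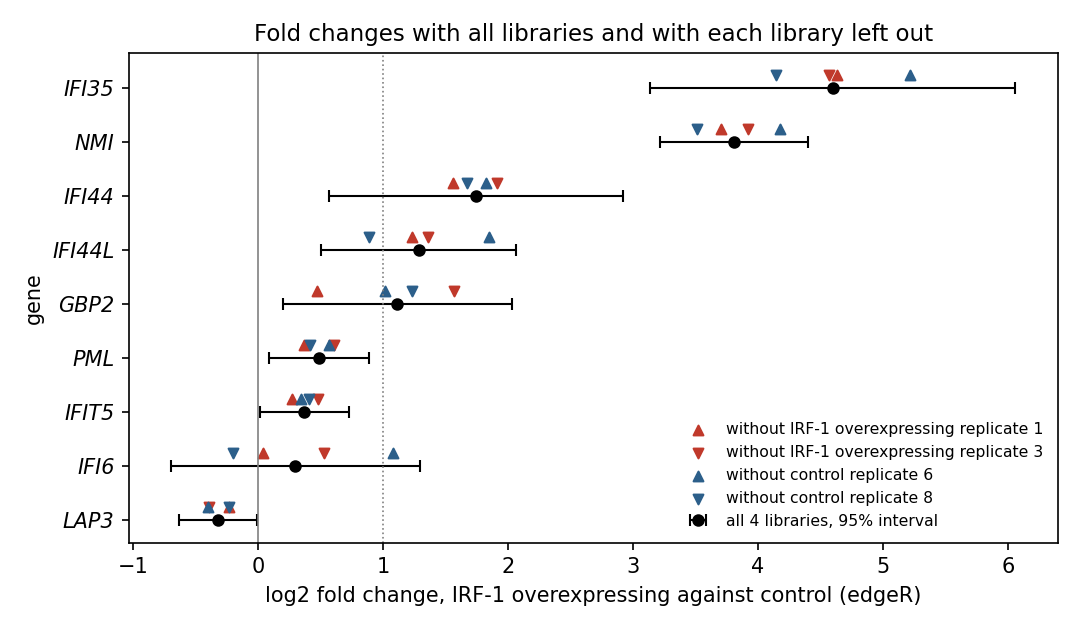
Log2 fold change of IRF-1 overexpressing over control cells (edgeR) for 9 effector genes, as black points with 95% intervals from all 4 libraries and as triangles with 1 library left out; SAMD9 is not drawn because its controls had 0 counts. The dotted line marks the fold limit of 1: IFI35, NMI and IFI44 lie beyond it whichever library is left out, while IFI6 crosses 0 and GBP2 ranges from 0.47 to 1.57.

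Levels of different genes were compared per kilobase of exon. In control cells LAP3 was the most abundant at 248 CPM per kilobase, followed by IFIT5 at 12.6. IFI6 (5.31) and PML (4.10) overlapped in their library ranges, as did the next neighbours in the order, IFI44L (2.01), NMI (1.55) and GBP2 (1.53). IFI44 (0.143), IFI35 (0.0504) and SAMD9 (0) were the lowest. In IRF-1 overexpressing cells LAP3 stayed first at 199 CPM per kilobase and NMI moved up to the second place at 21.6, above IFIT5 at 16.3. IFI6 (6.51) and PML (5.74) overlapped again, and IFI44L (4.90), GBP2 (3.31), SAMD9 (1.85), IFI35 (1.28) and IFI44 (0.483) followed, of which only GBP2 and SAMD9 overlapped. The members with the lowest fold changes, IFIT5, PML, IFI6 and LAP3, were the top 4 in control cells by level per length. The control level also enters the fold change, so these orders are not independent, and no relation between them was tested.

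The IRF-1 overexpressing libraries also differed from each other. IRF1 was 1.25-fold higher in replicate 1 than in replicate 3. SAMD9 was 1.63-fold, GBP2 2.15-fold, IFI6 1.41-fold and IFI44 1.29-fold higher in replicate 1. In all, 8 of the 10 effector genes lay higher in replicate 1, with IFI35 and LAP3 the exceptions, against 49.6% of all tested genes. The median ratio of replicate 1 to replicate 3 was 1.18 for the effector genes and 0.998 for all tested genes. Only 2 libraries are involved, so no relation with the dose of IRF1 was tested. Between the control libraries, IFI6 (2.44-fold), IFI35 (2.24-fold, on 2 and 1 counts), IFI44L (1.97-fold) and NMI (1.59-fold) were higher in replicate 6. In all, 6 of the 10 effector genes lay higher in control replicate 6, against 6940 of all 13250 tested genes. The median ratio of control replicate 6 to control replicate 8 was 1.12 for the effector genes and 1.01 for all tested genes.

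The effector genes lie on 8 chromosomes, and among them IFI44 and IFI44L are neighbours. Genes next to them were mixed in their response. IFI35 lies 280 bases from VAT1 and 794 bases from RPL27, both of which were abundant in all libraries and were not called. VAT1 missed the call on the fold limit alone (log2 fold change -0.76, edgeR adjusted p = 0.00472). RPL27 had a log2 fold change of 0.39 (edgeR adjusted p = 0.0801). PML lies 10892 bases from ISLR2, which rose from 29 and 180 counts in control replicates 6 and 8 to 5005 and 3222 counts in IRF-1 overexpressing replicates 1 and 3. SAMD9 lies 16223 bases from HEPACAM2, which fell by 1.40 on the log2 scale. Of the effector genes, IFIT5 shared exon bases with another gene, namely 20 bases with LIPA on the opposite strand.

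Other interferon-stimulated genes were taken from a list of 85, of which 57 had a named row and 44 were tested. Of these 44, 28 were called higher and 1 lower, beside 8.61% and 10.6% of all tested genes. With glmTreat, 16 were called higher and 0 lower, beside 4.61% and 4.55% of all tested genes. Their median log2 fold change was 1.33. For 37 of the 44, both IRF-1 overexpressing libraries lay above both controls, beside 34.8% of all tested genes. The antiviral factor PARP14, an ADP-ribosyltransferase, went from 2 and 0 counts in control replicates 6 and 8 to 1370 and 774 counts in IRF-1 overexpressing replicates 1 and 3, a ratio of 778 (95% counting interval 215 to 6426). IFIT2, DDX60 and TMEM140 had 0 counts in both controls and were at least 12.9-fold, 6.30-fold and 5.48-fold higher, against the same floor. For IFIT2, counted 81 and 30 times in IRF-1 overexpressing replicates 1 and 3, the bound from replicate 3 alone was 7.93-fold. PARP12, a relative of PARP14, rose with a log2 fold change of 5.94 (SE 0.37, edgeR adjusted p = 0.000163).

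The smallest called rises in that list were those of the kinase EIF2AK2 (log2 fold change 1.07), the tryptophanyl-tRNA synthetase WARS1 (1.10) and the ISG15-conjugating enzyme UBE2L6 (1.21). DHX58, a regulator of RNA sensing, was the gene that fell, by 1.73 on the log2 scale (SE 0.46, edgeR adjusted p = 0.0263). It was not called without IRF-1 overexpressing replicate 1 or 3 or without control replicate 6. Per length, the most abundant of these genes in IRF-1 overexpressing cells were WARS1 (98.5 CPM per kilobase), SAMHD1 (49.5), MX1 (32.1), IFI30 (30.5) and ZC3HAV1 (24.1). SAMHD1 (log2 fold change 1.36), MX1 (1.24) and IFI30 (1.49) rose, while ZC3HAV1 had a log2 fold change of 0.09 and was not called. Of the genes listed as relatives of the effector genes, 4 of 12 were tested and all 4 were called higher, beside 8.61% of all tested genes. These were IFIT1, IFIT2, GBP1 and IFI30, the last of which shares the name prefix and not the family. The chemokines CXCL9 and CXCL10 and the enzyme IDO1, classical targets of interferon gamma, had 0 counts in all 4 libraries. Exon bases shared with another gene make a count uncertain. Of the genes of this list named here, EIF2AK2 (557), SAMHD1 (493), DHX58 (303) and SP110 (169) shared the most; of those called but not named by level or fold change, SHFL shared 1294 of its 5114 with ANGPTL6.

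**Figure D3:**
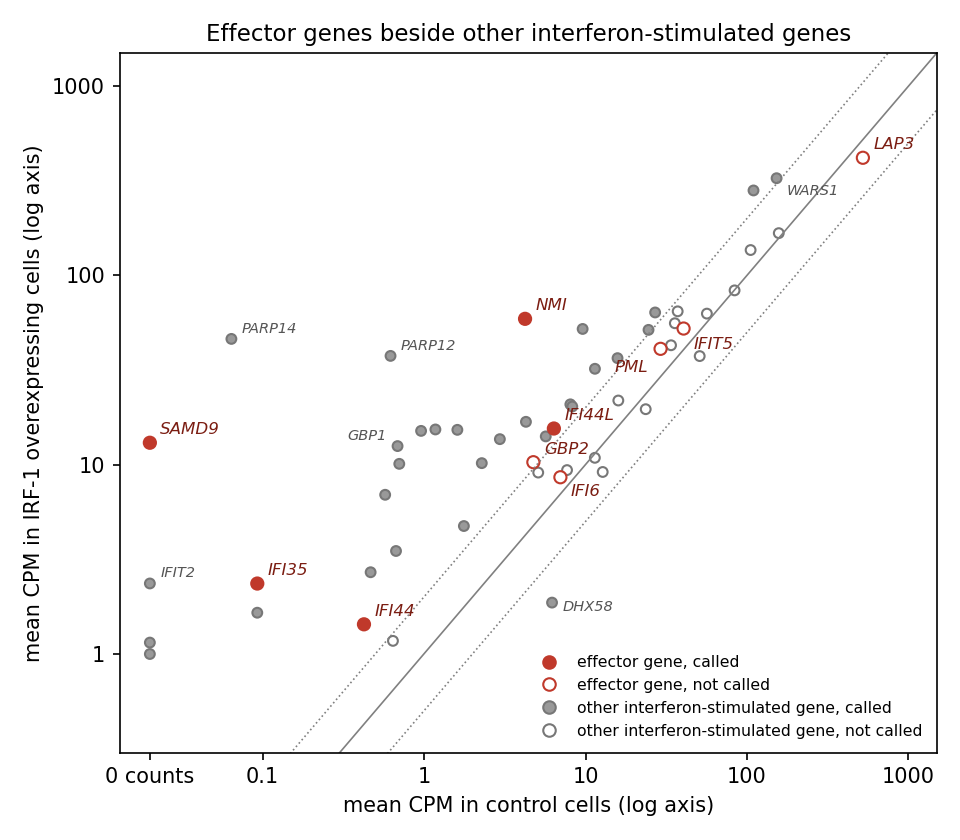
Mean CPM in IRF-1 overexpressing cells against mean CPM in control cells (log axes, n = 2 libraries each) for the 10 effector genes in red and 44 other tested interferon-stimulated genes in grey; filled points were called. The solid line marks equal levels and the dotted lines a change of 2-fold; genes with 0 counts in both controls are drawn at the left edge, and DHX58 is the filled point below the lines.

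Of 32 listed genes of the interferon pathway, 28 had a row and 18 were tested; 5 were called higher, the overexpressed IRF1 itself among them, and 1 lower, beside 8.61% and 10.6% of all tested genes. The 4 ligand genes with a row had few or no counts, and IFNA1, IFNL1 and IFNL3 were not analysed here. IFNB1 had 0 counts in all 4 libraries, IFNG had 1 count in control replicate 8 and 0 elsewhere, IFNK had 1 count in each IRF-1 overexpressing library, and IFNE had 2 counts in IRF-1 overexpressing replicate 1. Among receptor genes, IFNAR1 rose (log2 fold change 1.02, SE 0.24, edgeR adjusted p = 0.0173) and IFNLR1, with 0 and 2 counts in IRF-1 overexpressing replicates 1 and 3 against 9 and 10 in control replicates 6 and 8, was called lower (ratio 0.0764, 95% counting interval 0.00863 to 0.317), a call that DESeq2 did not give. IFNAR2 (log2 fold change 0.43) and IFNGR1 (-0.53) were not called. Among kinases, JAK1 rose (1.95, SE 0.22, edgeR adjusted p = 0.000917), whereas JAK2 (0.09) and TYK2 (0.47, edgeR adjusted p = 0.0504) were not called.

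STAT2, which shares 2190 exon bases with PAN2, had a log2 fold change of -0.06 and was not called. Of the interferon regulatory factors besides IRF1, IRF5 rose from 2 and 6 counts to 63 and 26 (log2 fold change 2.96, SE 0.67, edgeR adjusted p = 0.0144), and IRF2 (0.64) and IRF3 (-0.27) were not called. IRF7 and IRF9 had at most 9 counts in a library, but 2909 of 3126 and 1449 of 1700 exon bases are shared with PHRF1 and REC8, so their transcripts may have gone uncounted. The feedback inhibitor SOCS1 rose (1.25, SE 0.18, edgeR adjusted p = 0.00247). The other inhibitors SOCS3 (0.01) and PTPN2 (0.14) were not called. PIAS1 (-0.63, edgeR adjusted p = 0.04) missed the call on the fold limit alone, and 2530 of its 5801 exon bases are shared with CALML4.

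Of 14 listed partners of PML in nuclear bodies, 10 were tested and 1 was called higher, a share close to the 8.61% of all tested genes. This was SP110, itself interferon-stimulated, which rose from 2.28 ± 0.31 CPM (SD, n = 2) to 10.2 ± 1.61 CPM (SD, n = 2) with a log2 fold change of 2.16 (SE 0.31, edgeR adjusted p = 0.0024). The kinase HIPK2 had a log2 fold change of 0.78 (edgeR adjusted p = 0.013) and missed the call on the fold limit alone. The chromatin proteins DAXX (0.40) and ATRX (-0.16) were not called. Nor were SUMO2 (-0.00058), the SUMO-directed enzymes RNF4 (-0.08) and SENP1 (0.01), MORC3 (-0.10) and TDG (-0.04).

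Markers of cell types were examined in the same libraries. Of 16 pluripotency markers, 8 had a named row and 6 were tested; DNMT3B was the most abundant, PRDM14 had 0 counts in all libraries and NANOG had between 5 and 11 counts, so the labelled cell type was marked by some of its defining genes and not by these. LIN28A, CDH1 and ESRRB fell, by 1.34, 2.25 and 4.19 on the log2 scale. Of the 6 tested, 3 were thus called lower and 0 higher, beside 10.6% and 8.61% of all tested genes. DNMT3B (log2 fold change 0.27) and EPCAM (0.21) were not called, with both IRF-1 overexpressing libraries above both controls, and KLF4 (-0.40) was not called, with both below. The summed level of the list was 1259 and 1302 CPM in IRF-1 overexpressing replicates 1 and 3 against 1516 and 1672 CPM in control replicates 6 and 8. POU5F1 and SOX2 were not analysed here.

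Of 14 immune cell markers, 8 were tested. Of these, 3 were called lower and 0 higher, beside 10.6% and 8.61% of all tested genes. Those lower were AIF1, ITGB2 and CD74, the last of which shares 1569 of its 4207 exon bases with TCOF1. The summed level of the list was 54.0 and 55.8 CPM in IRF-1 overexpressing replicates 1 and 3 against 266 and 185 CPM in control replicates 6 and 8, with AIF1 the most abundant. CD3E and LYZ had 0 counts in all libraries and PTPRC had 1 count in control replicate 8. CD79A had 47 and 59 counts in IRF-1 overexpressing replicates 1 and 3 against 28 and 19 in control replicates 6 and 8 (log2 fold change 0.72, not called), and shares 3229 of its 5179 exon bases with ARHGEF1. Of 8 endothelial markers, 6 had a row and 4 were tested. Of these, 1 was called lower (TEK, the most abundant) and 0 higher, beside 10.6% and 8.61% of all tested genes. CDH5 had at most 1 count in a library, and the summed level was 3.58 and 7.31 CPM against 58.1 and 65.2 CPM.

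Of 14 fibroblast markers, 12 had a row and 7 were tested, of which PRRX1 and COL1A2 rose and COL1A1, S100A4, DCN and PDGFRB fell. These 2 calls higher and 4 lower stand beside 8.61% and 10.6% of all tested genes. VIM was the most abundant, and the summed level was 1237 and 983 CPM in IRF-1 overexpressing replicates 1 and 3 against 1343 and 1204 CPM in control replicates 6 and 8. The trophoblast list fell most in summed level, from 15598 and 9553 CPM in control replicates 6 and 8 to 310 and 1157 CPM in IRF-1 overexpressing replicates 1 and 3. KRT8 (12015 and 7489 CPM) and KRT18 (3546 and 2035 CPM) made up nearly all of the control level, so the fall of the sum is that of these keratins. Of its 10 genes, 6 were tested, of which 1 was called higher and 3 lower, beside 8.61% and 10.6% of all tested genes. KRT8 (the most abundant), KRT18 and TFAP2C fell. TFAP2A rose from 2.88 and 2.69 CPM in control replicates 6 and 8 to 31.0 and 42.8 CPM in IRF-1 overexpressing replicates 1 and 3. GATA3 (log2 fold change 0.07) and GATA2 (-0.05) were not called, and CDX2 and HAND1 had 0 counts in all libraries. The part of these marker differences in the levels of the effector genes was not tested.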

How the data were processed

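The authors filtered reads with trim_galore, mapped them to Sscrofa11.1 with HISAT2 (2.0.4 in the submitters' processing notes) and deposited whole-number counts per gene from featureCounts 1.6.4, without normalization or pooling. How strand and multi-mapped reads were handled is not given in the sources used here. The 4 ChIP-seq libraries were not analysed here, and no promoter motifs were searched.

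Symbols came from a table of Ensembl pig gene names, which named 14692 of 24358 genes. The fit used edgeR 4.0.16 in R 4.3.3 (TMM, filterByExpr by group, quasi-likelihood test, Benjamini-Hochberg adjustment over 13250 genes). The SE is the size of the log2 fold change over the square root of F. Python 3.11.15 with pandas 2.3.3, scipy 1.17.1 and matplotlib 3.10.9 served for intervals, tables and plots. A group at 0 was set at a floor of 3 counts per library; with 1 to 3 counts, the ratio and its exact counting interval are given, where the plan had named a lower bound. Both cover counting error only. 1 count was worth 0.0403 to 0.0640 TMM-scaled CPM. The statistics were tested on simulated data.

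Members and gene lists were chosen with earlier results of these data known. Genes were named by a rule: the 10 members, IRF1, tested interferon pathway genes and PML partners; of the other interferon-stimulated genes the 6 highest and 4 lowest called log2 fold changes, the 5 highest levels per length and tested relatives of the members; defining cell type markers; and genes overlapping or next to a member. Results for some single genes that the rule takes are not reported here. The 14 alternatives were RLE, upper-quartile and no scaling factors, no filter, a filter of 1 CPM in 2 libraries, DESeq2 1.42.0, limma-voom (limma 3.58.1), glmTreat, no fold minimum, the counts without mitochondrial and the top 10 genes, and each library left out in turn.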

Additional observations from a re-analysis of the deposited data

How the results depend on the processing

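The calls of SAMD9, IFI35 and NMI held in all 14 alternatives. Testing against a fold of 2 directly (glmTreat) left 611 genes higher and 603 lower, 3 effector genes higher, and 16 other interferon-stimulated genes higher and 0 lower. With no fold minimum, 1842 genes were higher and 2054 lower. With 1 library left out, where the lone library is assumed to vary like those of the other group, genes called higher numbered 756 to 1156 and lower 874 to 1548, effector genes called higher 3 to 5, and other interferon-stimulated genes called higher 20 to 29 and lower 0 to 1. The log2 fold change of IFI6 reversed to -0.20 without control replicate 8 and was 1.08 without control replicate 6. The causes were not tested. No paired analysis was possible because the RNA-seq groups share no replicate number. Depth limits IFI35, IFI44 and genes at 0, for which the size of a change is known only within wide intervals.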
